A study of Mus musculus with 6 samples.

Results

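The clustered protocadherins are the 57 protein-coding genes on mouse chromosome 18 whose symbols begin with Pcdha (14 genes), Pcdhb (22 genes) or Pcdhg (21 genes), out of 21887 protein-coding genes used here. They were chosen by symbol and position, together with the 142 of 323483 accessible intervals that overlap their span extended by 200 kb on either side, from 36730285 to 38041873 on GRCm38.p6. Open chromatin was measured by ATAC-seq, an assay that tags accessible DNA with a transposase, in mouse embryonic fibroblasts of the cross M2-rtTA x TetO-Myf6, heterozygous for both alleles. The cells carry a reverse tetracycline transactivator and a Myf6 transgene that doxycycline switches on, and Myf6 encodes a regulator of skeletal muscle. All groups were kept for 24 h in a medium for induced myogenic cells (iMPC medium) with 10 ng/mL bFGF. The first group received doxycycline at 2 µg/mL with 5 µM forskolin, an activator of adenylate cyclase, 5 µM RepSox, an inhibitor of TGF-beta receptor signalling, and 3 µM CHIR99021, an inhibitor of the kinase GSK3 (together F/R/C). The second group received doxycycline alone, and the third received the medium alone. Each of the 3 groups had 2 libraries, and the labels do not say whether these came from separate cultures.

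The intervals analysed here are a consensus set joined over the experiment, and the file gives their positions without a value per library or group. What Myf6 or the compounds changed at the protocadherins was therefore not analysed here, the read depth is unknown, and no value below carries a replicate error or a test. An interval shows that a peak was called in the experiment, without showing in which group or how strong it was. As a check of the labelled cell type, all 10 fibroblast markers had an interval within 500 bp of a gene end, as did 6 of 8 neuronal, 3 of 7 macrophage and blood, 3 of 6 endothelial and 5 of 6 epithelial markers, against 70.3% of all protein-coding genes. Gene ends with an interval thus do not separate the labelled cell type from the others on their own.

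Protocadherins are cadherin-like adhesion proteins that give single neurons different surface identities. In the alpha and gamma clusters each gene begins with its own large variable exon, with its own promoter, which is spliced to constant exons shared by the whole cluster. The beta genes are each complete in a single exon. In neurons most variable promoters are used in few cells and by chance, while the C-type genes at the end of the alpha and gamma clusters are used more broadly. CTCF and cohesin bring promoters to distal enhancers, which are known to lie within and beyond the constant exons of alpha and beyond the constant exons of gamma. Because the alpha genes share their upper end, and the gamma genes theirs, the lower end of each gene was taken as its start. The beta genes, which are transcribed in the same direction, were treated alike.

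An accessible start was a feature of the whole gamma cluster, of the last part of the beta cluster, and of the last alpha genes. An interval lay within 500 bp of the start in 21 of 21 gamma genes (100%), 7 of 14 alpha genes (50%) and 6 of 22 beta genes (27.3%). Over the 57 genes together this was 34, or 59.6%, near the 65.6% found among 17492 protein-coding genes of other chromosomes whose start is known here. As a whole the locus therefore did not stand out in the share of accessible starts, and the contrast lay between its clusters. Within the beta cluster the 14 genes Pcdhb1 to Pcdhb14 had none, and 6 of the 8 genes Pcdhb15 to Pcdhb22 had one. Within the alpha cluster 2 of the 9 genes Pcdha1 to Pcdha9 had one, and all 3 genes Pcdha10 to Pcdha12 and both C-type genes had one. Both clusters were split here where start intervals become frequent, with the values known, so these shares were set in part by the split. By position alone, the accessible starts of both clusters gathered toward the upper end.

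**Figure D1:**
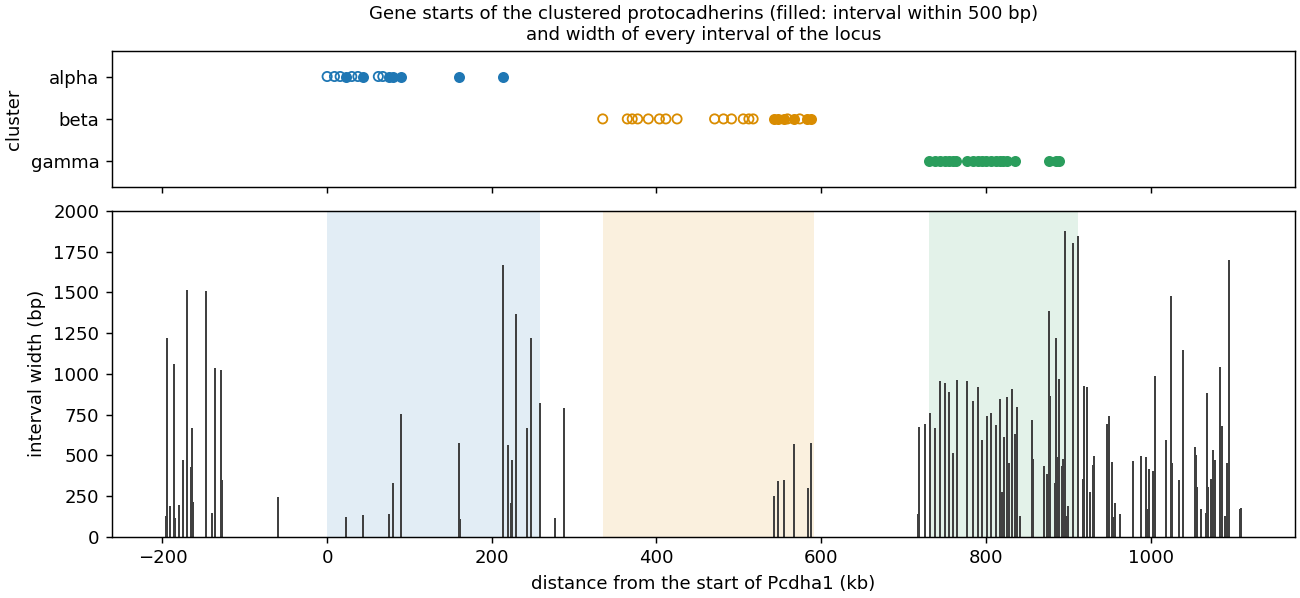
Top, the starts of the 57 genes by cluster against the distance from the start of Pcdha1 in kb, filled where an interval lies within 500 bp. Below, each of the 142 intervals as a line whose height is its width in bp, with the alpha, beta and gamma clusters shaded blue, orange and green; all 21 gamma starts are filled, and no interval falls over the first 14 beta genes.

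The gamma genes of types A and B showed the most regular arrangement. From Pcdhga1 to Pcdhga9, 13 genes in a row, there were 13 intervals, and all 13 lay at a gene start, with none in the sequence between. The row was ended there with the intervals known, so the lack of others was set in part by that choice. Pcdhga1 (gene start 37661775) had an interval of 760 bp at 37661628 to 37662387, and Pcdhga3 (37674335) had one of 955 bp at 37674149 to 37675103. Pcdhgb1 (37680272) followed with 944 bp at 37680162 to 37681105. The widest of types A and B were Pcdhga5 with 963 bp and Pcdhga6 with 959 bp, and the narrowest was Pcdhgb2 with 514 bp, at 37689716 to 37690229. Over the 12 type A genes the median width was 840 bp (595 to 963 bp), and over the 6 type B genes 714 bp (514 to 944 bp), so the ranges of both types overlap. Between these extremes lay Pcdhgb4 with 921 bp, Pcdhga4 with 891 bp, Pcdhga11 with 860 bp, Pcdhga10 with 845 bp and Pcdhga7 with 834 bp. From Pcdhga1 to Pcdhga9 the starts follow each other at 4.52 kb (Pcdhgb2 to Pcdhga5) to 12.7 kb (Pcdhga5 to Pcdhga6).

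The single interval per gene held up to Pcdhga10 and gave way to more after it. From Pcdhgb6 up to the first C-type gene 19 intervals were found, of which 5 lay at the starts of the 5 genes Pcdhgb6, Pcdhga10, Pcdhgb7, Pcdhga11 and Pcdhga12. The other 14 had a median width of 358 bp, and 9 of them lay in the 40.8 kb between the starts of Pcdhga12 and Pcdhgc3. The widest of the 14, 904 bp at 37761279 to 37762182, lay before Pcdhga12. It spans the start of Pcdhgb8, a transcribed pseudogene in RefSeq and so not among the 57. Pcdhga12 was the gamma gene whose interval did not reach its start: the interval of 631 bp, at 37765760 to 37766390, began 180 bp inside the gene. Pcdhga1, Pcdhgb2, Pcdhga12 and Pcdhgb8, and below Pcdhb18, Pcdhb20 and the Ugt1a genes, were singled out after their values were seen.

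Start intervals of the variable gamma genes lay mostly inside the gene. Of the 18 genes of types A and B, 17 had an interval across the start and all 18 had its midpoint inside the gene. Their intervals ran from a median of 150 bp before the start (at most 288 bp) to a median of 639 bp after it (370 to 833 bp). Among the 11480 genes of other chromosomes with a start interval the medians were 416 bp before (quartiles 236 and 668 bp) and 768 bp after (498 and 1083 bp). In 31.6% of those genes the upstream edge was as near as in the farthest type A or B gene, so this shape is not rare. Of the same genes, 87.9% had an interval across the start, and 71.3% had its midpoint inside the gene. The beta genes with a start interval had an edge as near, from 96 to 186 bp before the start. Position was taken from the annotated gene start, and use of another start in these cells would shift these distances.

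**Figure D2:**
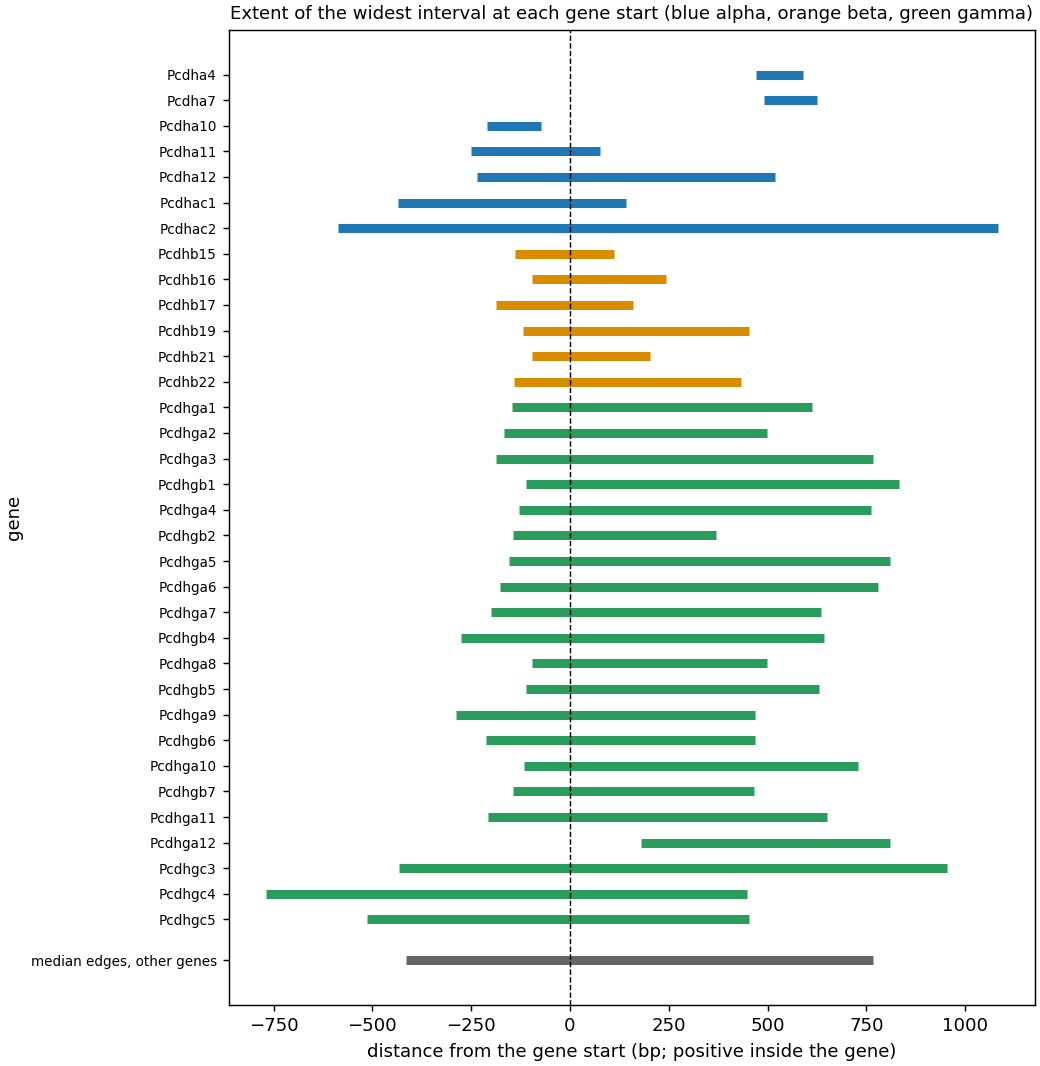
Each bar runs from the upstream to the downstream edge of the widest interval within 500 bp of a gene start, in bp from the start (dashed), for the 34 genes with one, in chromosome order. The grey bar joins the median edges of 11480 genes of other chromosomes (416 bp before, 768 bp after); most gamma bars begin close before the start and reach far into the gene, and the C-type bars begin farther upstream.

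The 5 C-type genes all had an accessible start, and their intervals began farther upstream than those of types A and B. Pcdhgc3 (gene start 37806410) had 1387 bp at 37805977 to 37807363. Pcdhgc4 (37815079) had 1217 bp at 37814310 to 37815526, and Pcdhgc5 (37819546) had 968 bp at 37819032 to 37819999. All 3 were wider than every type A and type B interval, although Pcdhgc5 exceeded Pcdhga5 (963 bp) by little. In the alpha cluster Pcdhac2 (37143678) had 1671 bp at 37143091 to 37144761, the widest start interval of the 57 genes, and Pcdhac1 (37090136) had 577 bp at 37089702 to 37090278. The intervals of the C-type genes began 433 to 769 bp before the start, and those of the type A and B genes that reached it at most 288 bp before. Other chromosomes gave 11480 genes with a start interval. Their upstream edge lay a median of 416 bp before the start (quartiles 236 and 668 bp), and their median width was 1258 bp. Neither a wide interval nor an edge this far upstream is thus particular to C-type genes. Of those 11480 genes, 27.0% had an interval no wider than the widest of types A and B.

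**Figure D3:**
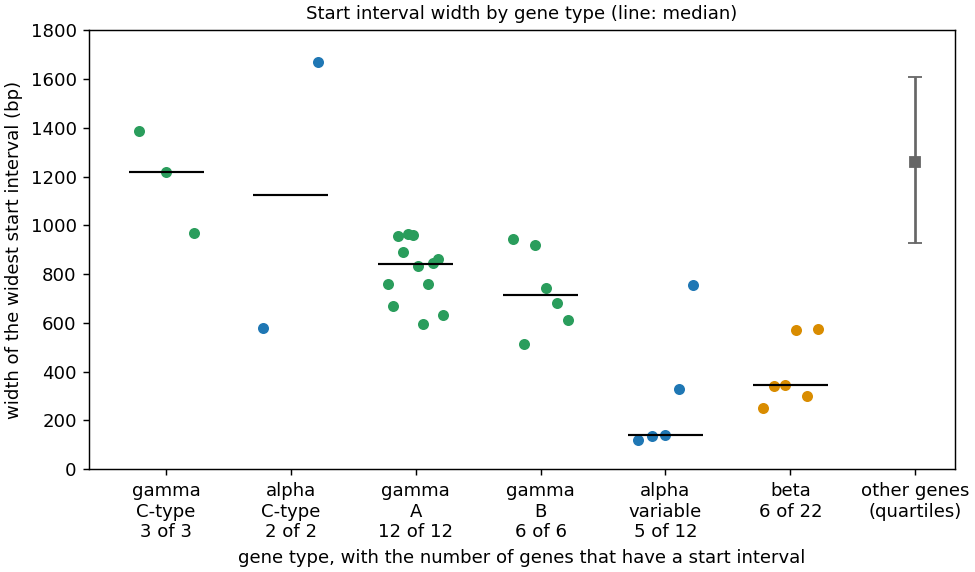
Width in bp of the widest start interval of each gene, by gene type, with the median as a line and the number of genes with such an interval under each type. The grey square and bar give the median and quartiles of 11480 genes of other chromosomes (1258 bp, 929 to 1609 bp); the gamma C-type genes lie above types A and B, and the beta and most variable alpha genes lie lowest.

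The variable alpha genes had few and narrow intervals, all close to starts. Between the start of Pcdha1 and the approach to Pcdhac1, 159 kb held 5 intervals, and each lay within 500 bp of a gene start. Pcdha12 (37020230) had 755 bp at 37019995 to 37020749, and Pcdha11 (37010858) had 328 bp at 37010607 to 37010934. These are the variable alpha genes whose interval covered the start. The interval near Pcdha10 (37005320), of 139 bp, ended 73 bp before the gene. Those of Pcdha4 (36952689) and Pcdha7 (36973811), of 119 and 136 bp, began 472 and 491 bp inside the gene, at the border of the 500 bp used, and within 250 bp of the start neither counts, which leaves 5 of 14 alpha genes (63.3% of genes on other chromosomes had an interval that near). Pcdha1, Pcdha2, Pcdha3, Pcdha5 and Pcdha6 had no start interval, and their nearest interval was 22.9, 14.0, 7.07, 7.00 and 6.68 kb away. Past Pcdha12 a stretch of 69.0 kb, up to the interval of Pcdhac1, held none.

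The longest stretch of the locus without any interval covered the first part of the beta cluster. From 37218499 to 37473406, 255 kb that include the starts of the 14 genes Pcdhb1 to Pcdhb14, no interval was called. The first 46.5 kb of it lie before Pcdhb1, between the alpha and beta clusters. Of 323350 stretches between neighbouring intervals in the genome, 441 (0.136%) were as long, and the median was 3.03 kb. Long empty stretches nevertheless occur elsewhere, and 9.04% of genome windows as long as the segment of Pcdhb1 to Pcdhb14 (209 kb) held no interval either. That segment was bounded by the empty genes themselves, so its lack of intervals was set in advance. The windows also include unsequenced stretches, which can raise this share. Elsewhere, only genes with a known start were counted (17492 of 21376), and those without one were skipped. Counted this way, 57 rows of at least 14 successive genes lacked start intervals, 26 of them mostly olfactory or vomeronasal receptor genes. Likewise 34 rows of at least 21 successive genes all had one. A skipped gene could break such a row, whereas the beta and gamma rows include every member. Under that unlike count, the empty beta row and the full gamma row both had parallels.

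The accessible beta starts had a median interval width of 344 bp (251 to 576 bp), against 797 bp (514 to 963 bp) over gamma types A and B, and these ranges overlap. They reached 111 to 453 bp into the gene. Pcdhb22 (37518353), the last of the cluster, had 576 bp at 37518212 to 37518787, which covered 14.2% of the gene. Pcdhb19 (37496998) had 572 bp at 37496880 to 37497451. Pcdhb17 (37485021) had 347 bp and Pcdhb21 (37513652) had 300 bp. Pcdhb16 (37477768) had 341 bp across its start and a second interval of 136 bp inside the gene, and Pcdhb15 (37473546) had 251 bp. All 6 starts lay within their interval. The 7 intervals of the cluster all lay within 500 bp of one of these starts, the second of Pcdhb16 only at the border of that window. On other chromosomes, 87.9% of genes with a start interval had it across the start, and 10.9% had one no wider than the widest of the beta genes. Pcdhb18 and Pcdhb20, between accessible neighbours, had no interval nearer than 4.28 and 6.81 kb. For Pcdhb1, Pcdhb2, Pcdhb3, Pcdhb4 and Pcdhb5 the nearest was 46.5, 76.3, 82.3, 89.0 and 102 kb away, beyond the end of the alpha cluster. Beta genes resemble each other in sequence, and the sources used here do not give how reads matching several of them were handled. Its part in the missing intervals was not tested.

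The density of intervals followed the same order. The gamma cluster held 2.50 intervals per 10 kb and had 17.0% of its sequence covered. The alpha cluster held 0.580 per 10 kb (3.38% covered) and the beta cluster 0.273 per 10 kb (0.984% covered). Windows of the gamma cluster's length over the genome had a median of 1.17 per 10 kb (quartiles 0.389 and 1.94), and 11.4% of them held as many intervals as gamma. For beta, 20.8% of windows of its length held as few, and for alpha 32.1%. The densest segment was that of the gamma C-type genes with the shared upper end, 36.0 kb with 13 intervals, or 3.61 per 10 kb, and 30.6% of its sequence covered. In 3.92% of genome windows of that length the number was as high. Within the alpha cluster the C-type segment held 1.01 per 10 kb and the variable segment 0.314 per 10 kb. The whole span from Pcdha1 to the end of gamma, 912 kb, held 0.812 per 10 kb, between the quartiles of windows of its length (0.559 and 1.85).

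**Figure D4:**
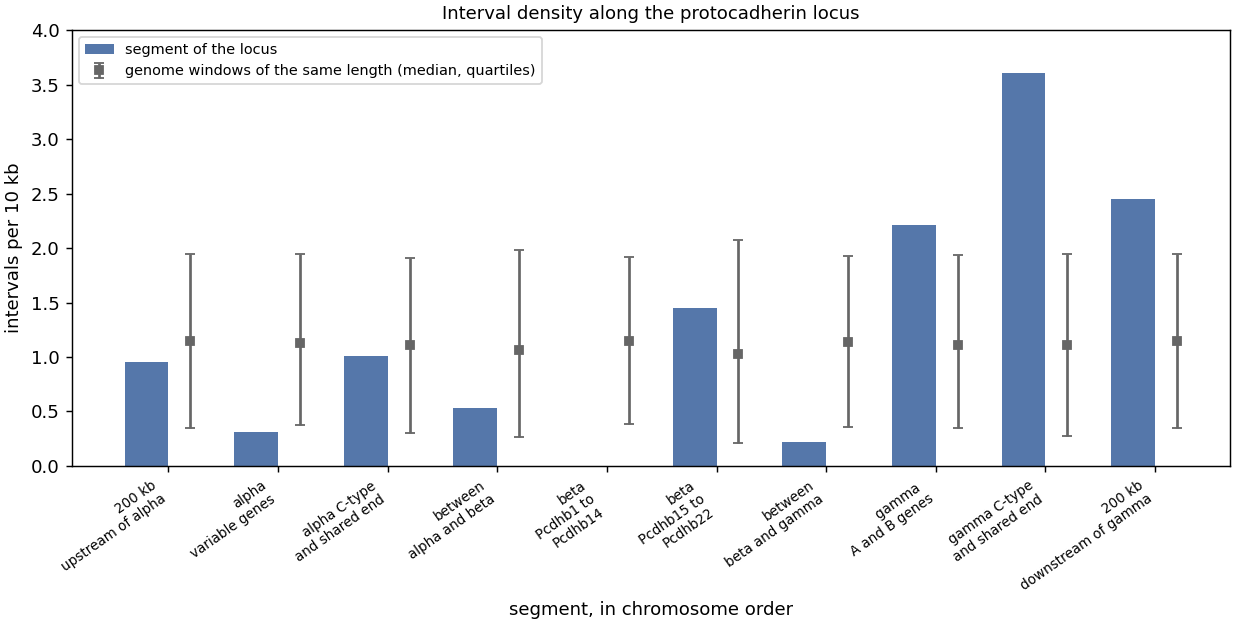
Bars give intervals per 10 kb in 10 segments of the locus in chromosome order, and grey squares with bars give the median and quartiles of genome windows of the same length. The segments of gamma and the 200 kb downstream of it lie above the upper quartile, and the variable alpha segment, the first 14 beta genes and the sequence between beta and gamma lie below the lower quartile.

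Beyond the gene starts, the alpha cluster had its widest intervals between Pcdhac2 and the shared upper end, the part that holds the constant exons. The widest there measured 1368 bp, at 37158789 to 37160156. Others of 665 bp (37172193 to 37172857) and 1217 bp (at 37177805 to 37179021) followed nearer the end. An interval of 824 bp, at 37188668 to 37189491, spanned the upper end of Pcdha6, the alpha gene that ends farthest along the chromosome. Between it and Pcdhb1 only 3 further intervals were found. One of 112 bp lay 18.5 kb beyond the cluster, and a neighbouring pair of 341 bp (37217211 to 37217551) and 792 bp (37217707 to 37218498) lay 28.3 and 28.8 kb beyond it. A known enhancer of the alpha cluster, HS5-1, lies in this gap between alpha and beta. Its coordinates were not used here, so whether the pair is that element was not tested.

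The gamma cluster was followed by many more intervals than the alpha cluster. Its widest intervals lay after Pcdhgc5, with 1875 bp at 37824940 to 37826814 and 1801 bp at 37835221 to 37837021. Another, of 1848 bp at 37841394 to 37843241, spanned the shared upper end and came within 360 bp of the neighbouring gene Diaph1, which encodes an actin-nucleating formin. These were the 3 widest intervals of the locus, and 0.790 to 0.992% of all intervals in the genome were as wide. They were picked for their width among all intervals of the locus, so these shares do not mark them as exceptional. In the 50 kb after the cluster there were 14 intervals, including 923 bp at 37849360 to 37850282 and 918 bp at 37852086 to 37853003. Diaph1 runs from 37843601 to 37935622, so nearly all of these 50 kb lie within that gene. The 50 kb after the alpha cluster, where no neighbouring protein-coding gene begins or ends, held 4. The flanks thus differ in gene content, and its part in the contrast was not tested. Over 200 kb the gamma flank held 49 intervals, or 2.45 per 10 kb, and 12.3% of genome windows of that length held as many. The widest of them after the one at the shared end were 1697 bp at 38024972 to 38026668, at the lower end of a long noncoding RNA gene, 1479 bp at 37954286 to 37955764, at the adjoining ends of Hdac3 and Rell2, 1146 bp at 37969217 to 37970362, at an end of Fchsd1, and 1042 bp at 38014593 to 38015634. Known enhancers of the beta and gamma genes lie downstream of gamma, and none of these intervals was matched to one.

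**Figure D5:**
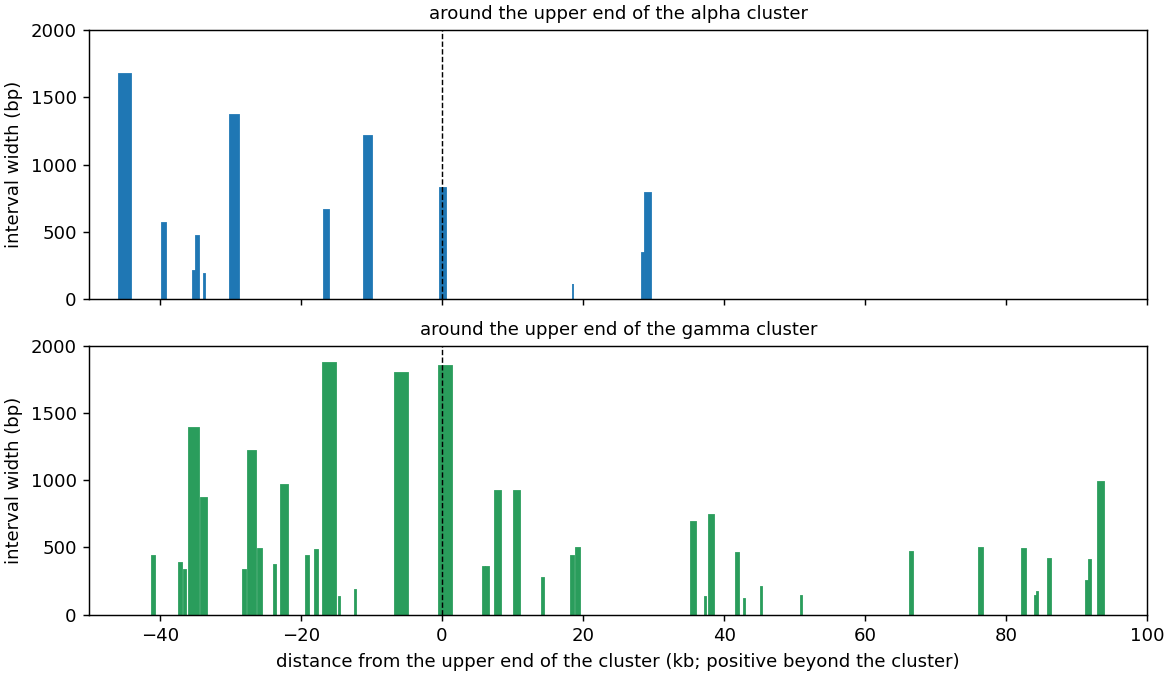
Intervals from 50 kb before to 100 kb after the upper end of the alpha cluster (top) and the gamma cluster (below), drawn to scale along the distance in kb, with their width in bp as height. In the first 50 kb, alpha has 4 intervals, among them a pair near 28.3 and 28.8 kb, and gamma has 14. Both counts include the interval across the cluster end, and the 14 of gamma lie almost wholly within Diaph1.

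Between beta and gamma, 140 kb held 3 intervals, of 139, 672 and 689 bp, and all 3 lay in its last part before Pcdhga1, at 37647734 to 37656184. The preceding 129 kb, up to the interval of Pcdhb22, held none. In that stretch lie Slc25a2, a mitochondrial carrier gene, and Taf7, which encodes a subunit of the general transcription factor TFIID. Neither gene had an interval at either end, and the nearest was 9.01 kb from Slc25a2 and 3.53 kb from Taf7. The other 13 of the 15 neighbouring genes within the extended span all had one at an end, among them Tmco6, Ndufa2, Ik, Wdr55, Dnd1, Hars, Hars2 and Zmat2 before alpha, with the widest at Wdr55 (1514 bp) and at the adjoining ends of Hars and Hars2 (1510 bp), and Diaph1, Hdac3, Rell2, Fchsd1 and Arap3 after gamma. For scale, 70.3% of all protein-coding genes had an interval at an end. That share includes families with few intervals, such as olfactory receptor genes (3.50% with a start interval), so it is a loose yardstick for Taf7. Another 3 gene models, Gm37013, Gm38666 and Gm38667, run from alpha starts to the gamma end and are counted in neither group. TFIID is used in most cells, and an absent interval in this set is no measure of a closed promoter. The same limit applies to the beta starts without an interval.

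Other genes were set beside the clusters for scale. The Ugt1a genes on chromosome 1, which encode glucuronosyltransferases, have the same layout of variable first exons and shared later ones. There 5 of 8 genes with a known start (62.5%) had a start interval, against 65.6% over genes of other chromosomes. The widest were 1489 bp at Ugt1a7c and 1443 bp at Ugt1a6a, and Ugt1a2, Ugt1a10 and Ugt1a9 had 252, 163 and 130 bp. Ugt1a8, Ugt1a5 and Ugt1a1 had none. Of tandem families, only members with a known start could be counted, 22 of 39 Hox genes, 36 of 53 keratin genes and 944 of 1110 olfactory receptor genes. Of those, 20 Hox genes (90.9%), 7 keratin genes (19.4%) and 33 olfactory receptor genes (3.50%) had a start interval. Of the 12 protocadherin genes outside the clusters, 11 had an interval at a gene end, with 2723 bp at Pcdh1 and 2671 bp at Pcdh7 the widest, and Pcdh9 had none. Of 10 cadherin genes 8 had one, with 2328 bp at Cdh2, the N-cadherin gene. Of 14 regulators of protocadherin promoter choice and chromosome looping, 10 had one. These included Ctcf (2240 bp), which encodes the looping factor that binds protocadherin promoters, the cohesin genes Smc1a (1535 bp) and Smc3 (1801 bp), the DNA methyltransferase gene Dnmt3b (1699 bp) and Smchd1 (1659 bp), which acts in silencing of the clusters. The remaining ones were Rest (2235 bp), Setdb1 (1631 bp), Stag2 (569 bp), Dnmt1 (315 bp) and Rad21 (225 bp). Nipbl, Stag1, Wapl and Dnmt3a had no interval at an annotated gene end. The shares of the last 3 lists, which count either gene end, lie beside 70.3% of all protein-coding genes.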

How the data were processed

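The deposited file lists 323483 consensus intervals. These were annotated by the authors with HOMER against a GRCm38.p6 sequence and GENCODE release M23, per the file headers. BWA, MACS2 and DESeq2 are named without version or role, per the submitters' processing notes. The sources used here do not give how peaks were called, joined and filtered. The deposited peak score is 0 in each row and the annotation columns are empty, so neither was used. No column names a library, so tests between groups were not run. Depth per library was not analysed.

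Gene positions came from RefSeq on GRCm38.p6, 1-based. No exon positions or genome sequence were used. Starts of 17492 of 21376 protein-coding genes on other chromosomes were known from the strand in the RefSeq promoter table. A start interval overlaps the 500 bp on either side of a gene start by at least 1 bp. Intervals were given to segments by midpoint, and genome windows of a segment's length did not overlap. The windows ran from the first position of each chromosome, unsequenced stretches included, which can raise the shares of windows with few intervals. Alternatives were windows of 250 bp and 1 kb, a minimum width of 300 bp, midpoints, 10 kb bins and other flanks. The overlap routine was tested on simulated data. Named genes are the C-type genes, up to 12 genes per cluster with the widest start intervals, up to 5 per cluster without, the widest intervals and the neighbours. Members, lists and segments, and the comparison families and rows of genes, were chosen with earlier results of these data known. Python 3.11.15, numpy 2.4.6, pandas 2.3.3 and matplotlib 3.10.9 were used.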

Additional observations from a re-analysis of the deposited data

How the results depend on the processing

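Under the 250 bp window, the minimum width and the midpoint setting, 21 gamma and 5 to 6 beta genes had a start interval; a wider window could not raise the gamma count, and a minimum width could not raise the count of 0 over Pcdhb1 to Pcdhb14. Of 55 alternative settings, 5 moved a count or density by more than 1.5 times. With intervals of at least 300 bp only, 4 alpha genes had a start interval in place of 7. The same minimum lowered the intervals per 10 kb to 0.500 in the 200 kb upstream of alpha, to 0.126 over the variable alpha genes and to 0.143 between beta and gamma. Within 50 kb after the alpha cluster the density was 0.800 per 10 kb, against 0.529 up to the first beta gene, since the flank is shorter and holds the same 4 intervals. No paired analysis was possible because the file holds no value per library; for the same reason the fits between groups, with DESeq2 and without single replicates, were not run. Joined peaks and unknown depth limit what widths and missing intervals show.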
